A study of Mus musculus with 5 samples.

Results

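The Notch receptors, ligands and targets described here are 10 genes: the receptors Notch1, Notch2 and Notch3, the ligands Jag1 and Jag2, the receptor modifier Lfng, and the target genes Hes1, Hey1, Hey2 and Heyl. They were taken by name from a deposited table of 19699 gene entries, and all 10 were found. RNA was sequenced from the large airways of E13.5 mouse embryos, a dissected section that took in trachea and lung. The 2 mutant samples came from embryos in which Prmt5, an arginine methyltransferase gene, was deleted in lung epithelial cells, and the 3 control samples were littermates labelled WT. The labels call the mutants a Prmt5 knockdown, and the design text names Shh together with Prmt5 in their genotype without giving the alleles. Mice are described as C57. The labels do not say how many embryos went into a sample, so p-values measure the spread between these samples, which may be technical in part.

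Notch signalling passes between touching cells. A Jagged or Delta ligand on one cell binds a Notch receptor on its neighbour, the receptor is cut, and its inner part enters the nucleus, where it joins the DNA-binding protein RBPJ and switches on repressors of the Hes and Hey families. Fringe enzymes such as Lfng add sugars to the receptor in the Golgi and so tune which ligand it answers to. In the developing airway the pathway is known for directing progenitors to secretory rather than ciliated fate and for limiting neuroendocrine cells, while in lung vessels it acts in arterial endothelium and in the smooth muscle and pericytes around it.

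Expression was given as FPKM (reads scaled by gene length and by library depth), so levels of different genes can be set side by side per length. The reads behind each library, recovered from the steps between FPKM values, came to 15652503 to 15756526 in mutant libraries, against 16305922 to 18682463 in the controls. Prmt5 itself was at 23.7 and 20.1 FPKM in mutant libraries, against 28.7, 26.4 and 25.8 FPKM in control libraries (limma adjusted p = 0.234). Its log2 difference was -0.29, short of the threshold. Both mutants lay below every control, as they did for 24.4% of the genes tested below. The tissue also holds cells outside the epithelium, and their part in the Prmt5 level was not tested. The airway label was checked against markers: Nkx2-1, the lung lineage factor, was at 36.1 and 32.8 FPKM in mutant libraries, against 40.2, 43.1 and 20.4 FPKM in control libraries. Xist, an RNA of female cells, was at 0.0673 and 0.289 FPKM in mutant libraries, against 57.3 to 115 FPKM in control libraries, while Ddx3y, on the Y chromosome, measured 12.0 and 10.8 FPKM in mutant libraries, against 2.54 to 9.91 FPKM in control libraries. Each control library thus held RNA of both sexes. By these genes the share of male RNA was higher in the mutants, and genotype and sex cannot be fully told apart. In the fits below, the share of male RNA stands for the Ddx3y FPKM divided by that of the highest library. It is the level of a single gene, not a measured share. It was 1 and 0.905 in mutant libraries, against 0.829, 0.56 and 0.213 in control libraries.

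The comparison of mutants with controls asked how the pathway's genes stood in embryos described as having Prmt5 deleted in lung epithelial cells. The test was limma on log2(FPKM + 1) over all 12838 genes that reached 1 FPKM in 2 libraries or more, with adjusted p under 0.05 as the threshold, which 2.36% of them passed. The two-sided exact permutation test of 5 libraries has 10 splits and cannot go below p = 0.1, so no single gene could pass on that test. All 10 members passed the filter. Hey1 and Lfng fell in the mutants, so 2 of 10 were lower, where 1.37% of all genes tested were lower, and 0 of 10 were higher, where 0.989% were. Voom on the recovered reads gave the same pair lower and 0 higher (backgrounds 2.81% lower and 1.89% higher), and 5 of 10 had an unadjusted p under 0.05 with limma, all 5 lower (background 12.3%) and 0 higher (background 6.53%; 18.9% in either direction). The median log2 difference of the 10 was -0.38, against -0.06 for all genes tested. The members were chosen with earlier results of these data known, so these shares and medians are a description, not an independent test. In bulk tissue, fewer cells of a type and less RNA per cell cannot be told apart.

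**Figure D1:**
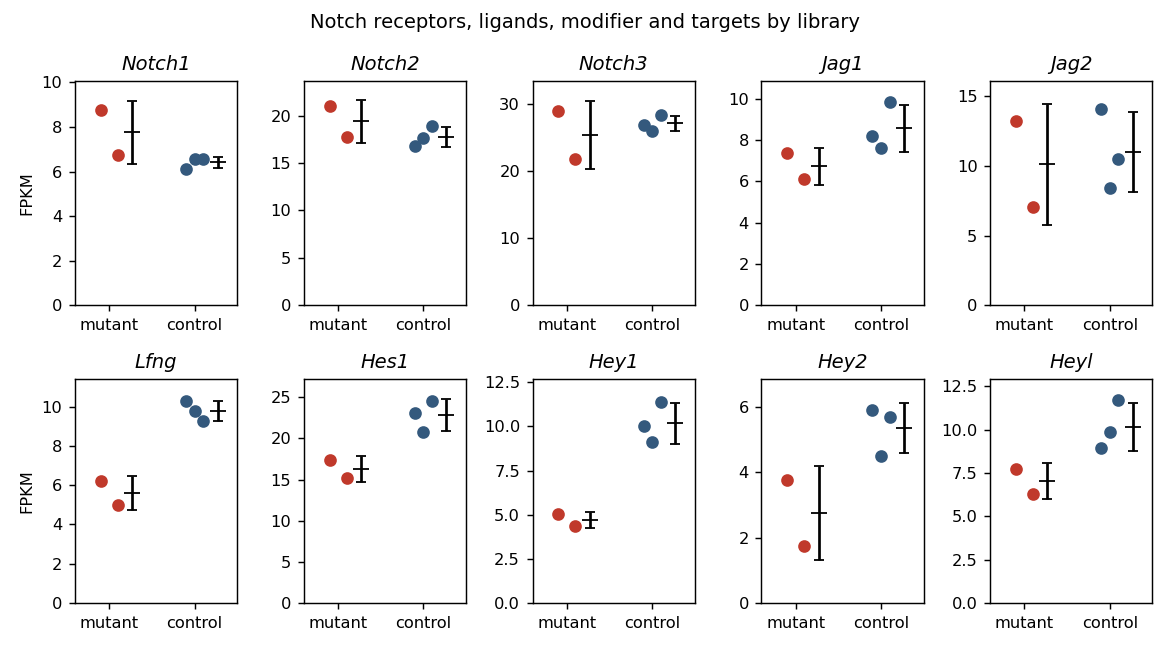
Level of each of the 10 genes in FPKM (vertical axis from 0, scaled per gene) in the 2 mutant and 3 control libraries. Points are libraries and black bars are the group mean with 1 SD. Both mutants lay below all 3 controls for Jag1, Lfng, Hes1, Hey1, Hey2 and Heyl, and above them for Notch1.

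The groups did not overlap for 7 of the 10 genes (background 37.6%). Both mutants lay below every control for 6 of them (background 24.4% of genes tested) and above every control for 1 (background 13.2%). Mutant replicate 1 was higher than mutant replicate 2 for all 10 genes, as it was for 9080 of the 12838 genes tested (70.7%).

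Of the 10 genes, Hey1 had the largest log2 difference in size in this fit. Hey1, a transcriptional repressor switched on by Notch in vessels and other tissues (chromosome 3, 8663359 to 8667256, GRCm38), reached 5.03 and 4.36 FPKM in mutant libraries, against 10.0, 9.11 and 11.4 FPKM in control libraries. The highest mutant thus lay well under the lowest control. Hey1 fell to 46.1% of the control level, at 4.70 ± 0.474 FPKM in mutants (SD, n = 2) and 10.2 ± 1.17 FPKM in controls (SD, n = 3). The log2 difference was -0.97 (SE 0.13, limma adjusted p = 0.0175), 92nd by p among the 12838 genes. The reads behind it were 259 and 223 in mutant libraries, against 611, 485 and 680 in the controls. The call was lost without mutant replicate 1 (log2 difference -1.06, adjusted p = 0.109) and without mutant replicate 2 (-0.89, 0.182), with differences close in size to the full one. It was also lost once each library's share of male RNA entered the fit (-0.86, SE 0.21, adjusted p = 0.0970), without a filter on low values (-0.97, 0.0785) and after conversion to TPM, a scaling to a fixed total per library (-1.56, SE 0.67, 0.662). With Gm23935, Rn18s-rs5 and Lars2 left out of the TPM total the call held (-1.12, limma adjusted p = 0.0166). With any single control left out the adjusted p stayed at 0.0323 to 0.0383.

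Hes1, the repressor that holds progenitors back from neuroendocrine fate (chromosome 16, 30064384 to 30067796), was the most abundant target. It was at 17.4 and 15.2 FPKM in mutant libraries, against 23.1, 20.8 and 24.6 FPKM in control libraries. Both mutants were below all controls, at 71.5% of the control level, yet the log2 difference of -0.46 (95% interval -0.74 to -0.18) did not pass (limma adjusted p = 0.0943).

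Hey2, a relative of Hey1 known in arteries and heart (chromosome 10, 30832359 to 30842801), was the least abundant of the 10 genes in both groups. It was at 3.78 and 1.75 FPKM in mutant libraries, against 5.90, 4.50 and 5.70 FPKM in control libraries, from at least 70 reads in mutant replicate 2. The mutants differed from each other by a wide margin, and the log2 difference of -0.80 (95% interval -1.36 to -0.25) did not pass (limma adjusted p = 0.130). Its size rested on which mutant was kept: it was -1.20 without mutant replicate 1 and -0.41 without mutant replicate 2.

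Heyl, a Notch target known in vascular smooth muscle (chromosome 4, 123233556 to 123249875), was at 7.75 and 6.29 FPKM in mutant libraries, against 8.97, 9.85 and 11.7 FPKM in control libraries. The groups again did not overlap, and the log2 difference of -0.48 (95% interval -0.82 to -0.13) did not pass (limma adjusted p = 0.141). It was -0.27 once the share of male RNA entered the fit. All 4 target genes thus had mutants below controls, and only Hey1 among them passed with limma or with voom. Their summed level was 34.0 and 27.6 FPKM in mutant libraries, against 48.0, 44.3 and 53.4 FPKM in control libraries. Within each library Hey1 stood at 0.289 and 0.287 of the Hes1 level in mutant libraries, against 0.433, 0.438 and 0.465 in the controls. This ratio was chosen after the values were seen and was not tested.

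Lfng, the Fringe glycosyltransferase of the list (chromosome 5, 140607320 to 140615545), was the other gene that fell. It was at 6.23 and 5.0 FPKM in mutant libraries, against 10.3, 9.79 and 9.29 FPKM in control libraries. The 3 controls lay close together, and both mutants were clearly below them. Lfng fell to 57.3% of the control level, at 5.62 ± 0.872 FPKM in mutants (SD, n = 2) and 9.81 ± 0.526 FPKM in controls (SD, n = 3), with a log2 difference of -0.71 (SE 0.13, limma adjusted p = 0.0383). This call was less steady than that of Hey1: it was lost when any 1 library was left out, with log2 differences of -0.85 to -0.58. The adjusted p was 0.114 and 0.274 without mutant replicate 1 or 2, and 0.0696, 0.0752 and 0.0688 without control replicate 1, 2 or 3. It was also lost once the share of male RNA entered the fit (log2 difference -0.83, SE 0.20, adjusted p = 0.0922), without a filter (-0.71, 0.119) and with TPM (-1.28, SE 0.67, 0.662). Without limma's trend (-0.71, 0.0504) and with the replicate number as a block (-0.75, 0.0706) the call was lost as well. It held with TPM when Gm23935, Rn18s-rs5 and Lars2 were left out of the total (-0.84, limma adjusted p = 0.0295).

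Among the 10 genes, 7 have a promoter in the RefSeq promoter table (GRCm38.p6), namely all but Hes1, Hey1 and Heyl. The letters TGGGAA, the core that RBPJ is known to bind, were searched on both strands (TTCCCA on the other) in the 250 bases before each start site. They occurred in 2 of the 7, Lfng and Hey2, and in 21.6% of all 32851 promoter windows in the table. Those of Lfng and Hey2 are shown, since each is a gene with mutants below controls whose window holds the core, with every match of this core in capitals, 5′ to 3′ on the strand of the gene (Lfng plus strand, chr5:140607091-140607340; Hey2 minus strand, chr10:30842784-30843033).
Lfng: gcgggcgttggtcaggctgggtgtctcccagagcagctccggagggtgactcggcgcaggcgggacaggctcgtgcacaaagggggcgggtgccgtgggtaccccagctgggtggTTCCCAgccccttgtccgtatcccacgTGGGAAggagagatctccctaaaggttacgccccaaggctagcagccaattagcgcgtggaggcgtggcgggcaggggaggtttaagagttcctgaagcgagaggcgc
Hey2: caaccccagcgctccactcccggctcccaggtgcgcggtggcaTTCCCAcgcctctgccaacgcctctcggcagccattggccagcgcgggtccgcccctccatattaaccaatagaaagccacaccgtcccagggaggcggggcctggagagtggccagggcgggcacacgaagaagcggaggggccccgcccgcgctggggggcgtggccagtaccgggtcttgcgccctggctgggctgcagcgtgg
The Lfng window holds a match on each strand, at 135 to 130 and 108 to 103 bases before the start. The match nearer the start overlaps the palindromic E-box CACGTG at 112 to 107 bases, letters that 6.02% of all windows hold. In Hey2 the match lies 207 to 202 bases before the start. The windows of Notch1, Notch2, Notch3, Jag1 and Jag2 do not hold the letters TGGGAA or CACGTG on either strand. A match is a description of the letters, not a measured binding site.

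For the receptors no difference passed the test. With limma 0 of 3 passed, 0 had an unadjusted p under 0.05, and 0 passed with voom. Notch1 (chromosome 2, 26457903 to 26516663) was at 8.75 and 6.76 FPKM in mutant libraries, against 6.11, 6.56 and 6.55 FPKM in control libraries. It was the 1 member with both mutants above all controls, although mutant replicate 2 exceeded the highest control by little. Its log2 difference was 0.23 (95% interval -0.08 to 0.55, limma adjusted p = 0.407). The sign turned with TPM (-0.28), but not with TPM without Gm23935, Rn18s-rs5 and Lars2 (0.19). The difference of Notch1 was 0.07 without mutant replicate 1 and 0.40 without mutant replicate 2.

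Notch2 (chromosome 3, 98013527 to 98150361) was at 21 and 17.8 FPKM in mutant libraries, against 16.8, 17.7 and 18.9 FPKM in control libraries, and the groups overlapped. Notch3, the receptor known in pericytes and vascular smooth muscle (chromosome 17, 32120820 to 32166852), was the most abundant of the 10 genes in both groups. It was at 28.9 and 21.7 FPKM in mutant libraries, against 26.9, 26.0 and 28.3 FPKM in control libraries, so the mutants lay on either side of the controls. The log2 differences were 0.11 for Notch2 (95% interval -0.16 to 0.39, limma adjusted p = 0.670) and -0.11 for Notch3 (95% interval -0.43 to 0.21, limma adjusted p = 0.743). That of Notch2 was -0.44 with TPM and 0.06 with TPM without Gm23935, Rn18s-rs5 and Lars2. In GENCODE M21, 3 annotated genes overlap Notch1, 2 overlap Notch2, 1 overlaps Notch3 and 1 overlaps Jag2. The other 6 members overlap none. These overlaps are of whole gene spans, on either strand and with introns, and their part in the counts was not tested.

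Of the ligands, 0 of 2 passed with limma, 0 had an unadjusted p under 0.05, and 0 passed with voom. Jag1, a ligand of airway progenitors and vessels and itself known as a Notch target (chromosome 2, 137081456 to 137116644), was at 7.36 and 6.10 FPKM in mutant libraries, against 8.22, 7.63 and 9.86 FPKM in control libraries. Both mutants lay below all controls by a small gap, with a log2 difference of -0.31 (95% interval -0.64 to 0.03, limma adjusted p = 0.305). It was -0.19 without mutant replicate 2 and -0.16 with the share of male RNA in the fit. Jag2 (chromosome 12, 112907819 to 112929776) was at 13.2 and 7.06 FPKM in mutant libraries, against 14.1, 8.41 and 10.5 FPKM in control libraries. Both groups were widely spread and overlapped, and its log2 difference of -0.14 had the widest interval of the 10, -0.78 to 0.50 (limma adjusted p = 0.841).

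**Figure D2:**
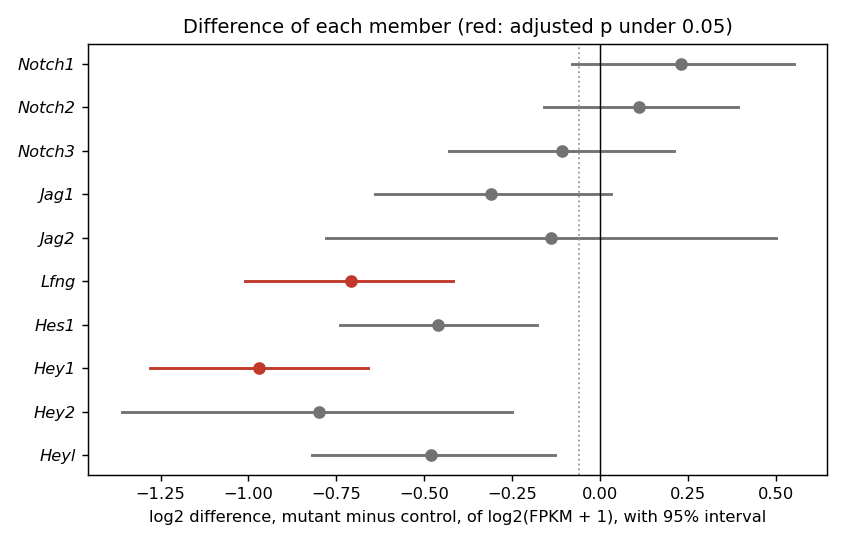
Log2 difference of each member, mutant minus control, on the scale of log2(FPKM + 1), with limma's 95% interval (horizontal axis). The dotted line is the median of all genes tested, -0.06. Hey1 at -0.97 and Lfng at -0.71, in red, passed an adjusted p of 0.05, and Hes1, Hey2 and Heyl in grey have intervals below 0 but did not pass.

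By level per length, the genes kept Notch3 at the top and Hey2 at the bottom in both groups. In the mutants the order was Notch3, Notch2, Hes1, Jag2, Notch1, Heyl, Jag1, Lfng, Hey1 and Hey2, with means of 25.3 down to 2.77 FPKM. The ranges of neighbours overlapped from Jag2 through to Hey1, so that stretch of the order is not set beyond the spread. In the controls the order was Notch3, Hes1, Notch2, Jag2, Hey1, Heyl, Lfng, Jag1, Notch1 and Hey2, with means of 27.1 down to 5.37 FPKM. Neighbours there overlapped from Jag2 through to Jag1. Hes1 stood below Notch2 in each mutant, at 0.830 and 0.856 of its level, and above it in each control, at 1.18 to 1.38. Hey1 was at 0.575 and 0.645 of the Notch1 level in mutant libraries, against 1.39 to 1.74 in the controls, and Lfng at 0.712 and 0.739 in mutant libraries, against 1.42 to 1.69 in the controls. These ratios were chosen after the values were seen and were not tested.

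Of the other genes of the pathway, 47 are reported, and 42 of them passed the filter. With limma 0 of these 42 passed, while 7 had an unadjusted p under 0.05, a share near the 18.9% of all genes tested. The median log2 difference was -0.07, close to that of all genes. Voom called 2, both lower, Hes6 and Dner, where it called 4.70% of all genes.

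Hes6, a family member known to counter Hes1, was at 14.6 and 11.8 FPKM in mutant libraries, against 30.7, 22.1 and 22.0 FPKM in control libraries. Its groups did not overlap, and its log2 difference of -0.86 (95% interval -1.27 to -0.46) just missed the threshold (limma adjusted p = 0.0528). It passed with voom (adjusted p = 0.0319) and with the share of male RNA in the fit (adjusted p = 0.0428). Nrarp, a Notch target that feeds back on the receptor's inner part, overlapped between groups, at 1.89 and 1.53 FPKM in mutant libraries, against 1.64 to 2.11 FPKM in control libraries. Hes5 and Hes7 were below the filter, with Hes5 at 0.242 FPKM or less and Hes7 at 0.562 FPKM or less in every library.

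Among other ligands, Dner, a Notch ligand of neurons, was at 0.451 and 0.561 FPKM in mutant libraries, against 2.07, 1.23 and 2.00 FPKM in control libraries (log2 difference -0.86, limma adjusted p = 0.0792). Dll4, the ligand of arterial endothelium, was at 3.30 and 2.26 FPKM in mutant libraries, against 3.96, 3.66 and 3.96 FPKM in control libraries (log2 difference -0.38, limma adjusted p = 0.251). Without mutant replicate 1 the difference of Dll4 was -0.58 and without mutant replicate 2 it was -0.18. Both ligands had mutants below controls, as had Dll1 and 24.4% of all genes tested. Dlk1, a Delta-like protein known to dampen Notch and the most abundant of the tested ligands, overlapped at 291 and 206 FPKM in mutant libraries, against 187, 255 and 249 FPKM in control libraries (log2 difference 0.10, limma adjusted p = 0.840). The receptor Notch4, known in endothelium, overlapped between groups at 2.35 and 1.93 FPKM in mutant libraries, against 1.70 to 2.49 FPKM in control libraries.

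In the general machinery of the pathway no gene passed. Tested were 7 genes of receptor cleavage, 10 of the nuclear complex and 9 of inhibition and turnover. With them were 5 ubiquitin ligases of ligands and 4 genes of Fringe and glycosylation. Of all these, 0 passed with limma or with voom (backgrounds 2.36% and 4.70%). An unadjusted p under 0.05 with limma was found for 4 (background 18.9%). Rbpj, the DNA-binding partner of cleaved Notch, was at 9.35 and 8.23 FPKM in mutant libraries, against 10.1, 10.3 and 10.4 FPKM in control libraries (log2 difference -0.21, limma adjusted p = 0.362; -0.12 without mutant replicate 2). Its coactivator Maml3 had a log2 difference of 0.30 and Poglut1, which adds glucose to Notch, 0.36, while Pofut1, which adds the fucose that Fringe extends, was at -0.10 (limma adjusted p = 0.256, 0.136 and 0.732). With TPM the signs of Maml3 and Poglut1 turned, to -0.17 and -0.19, but not with TPM without Gm23935, Rn18s-rs5 and Lars2 (0.29 and 0.31). Aph1b and Psenen, parts of the gamma-secretase that cuts the receptor, were at -0.53 and -0.09 (limma adjusted p = 0.162 and 0.688), and Aph1b was at -0.33 with the share of male RNA in the fit. The ubiquitin ligases Mib1 and Neurl1b, which act on ligands, were at -0.23 and -0.11, and Itch and Dtx3, a ligase of Notch and a member of the Deltex family, at -0.27 and -0.52 (limma adjusted p = 0.297, 0.828, 0.311 and 0.226). The difference of Dtx3 was -0.87 without mutant replicate 1 and -0.17 without mutant replicate 2.

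**Figure D3:**
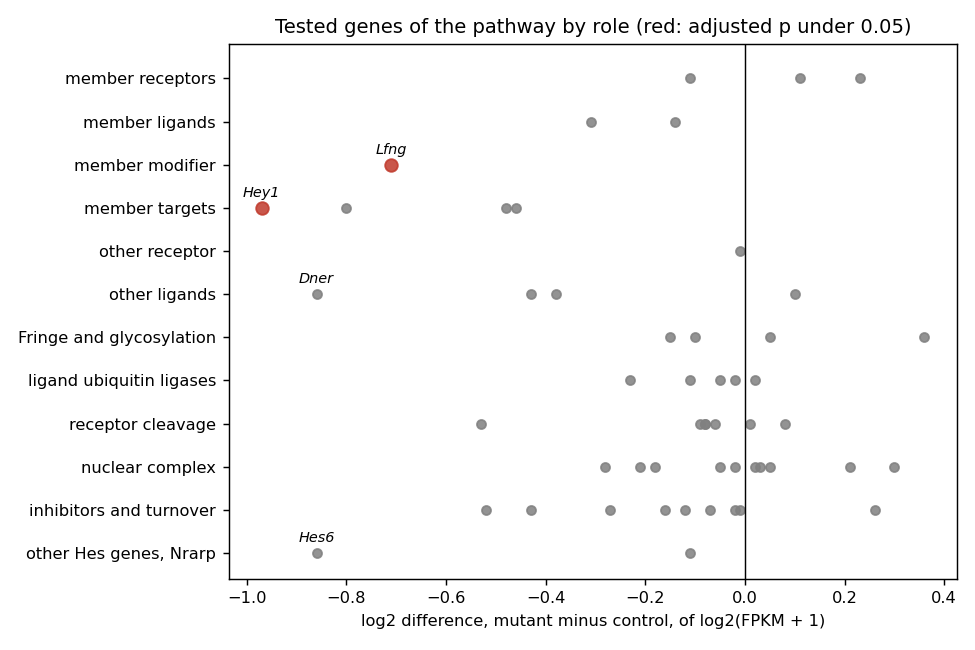
Log2 difference, mutant minus control, of log2(FPKM + 1) for the 10 members and the 42 tested further genes of the pathway, 1 point per gene, grouped by role. Red points passed an adjusted p of 0.05: Hey1 at -0.97 and Lfng at -0.71. Receptors and nuclear complex genes lie on both sides of 0, and among cleavage genes Aph1b lies lowest at -0.53.

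For each member that passed, the genes of most similar profile were found by Euclidean distance over the 5 libraries of centred log2(FPKM + 1). Closest to Hey1 were Dclk1, a doublecortin-like kinase gene, Tnc, which encodes the matrix protein tenascin C, and Cyp1b1, a cytochrome P450 gene, at distances of 0.112, 0.118 and 0.12. Tnc, for example, was at 8.84 and 8.33 FPKM in mutant libraries, against 18.7, 16.8 and 19.5 FPKM in control libraries. Closest to Lfng were Fam101a, Rasl11b and Vwa1, which encodes a matrix protein, at distances of 0.0748, 0.104 and 0.112. With 5 libraries such likeness is a description only.

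Markers of the cell types in the tissue were read beside these results. Endothelial markers, of the cells where Hey1, Hey2, Dll4 and Notch4 are known, summed to 241 and 199 FPKM in mutant libraries, against 172, 231 and 255 FPKM in control libraries. The groups overlapped, and 0 of 15 passed with limma or with voom (backgrounds 2.36% and 4.70%). With limma 2 had an unadjusted p under 0.05 (background 18.9%). These were Gja4 and Erg, with log2 differences of -0.58 and -0.37 (limma adjusted p = 0.151 and 0.230). For both genes each mutant lay below every control (background 24.4%). For Emcn each lay above (log2 difference 0.28, limma adjusted p = 0.285, background 13.2%). Pecam1 was at 18.7 and 15.5 FPKM in mutant libraries, against 17.6, 18.2 and 20.4 FPKM in control libraries, and Cdh5 at 44.8 and 32.8 FPKM in mutant libraries, against 30.4, 41.8 and 46.7 FPKM in control libraries. Both mutant sums thus lay within the range of the controls.

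Smooth muscle and pericyte markers, of the cells where Notch3 and Heyl are known, summed to 323 and 256 FPKM in mutant libraries, against 486, 334 and 383 FPKM in control libraries. Of 10 tested, Actg2, an actin of smooth muscle, was lower (log2 difference -1.89, limma adjusted p = 0.0107) and Mcam, a gene of pericytes and endothelium, was higher (0.94, adjusted p = 0.0300). With limma 1.37% of all genes tested were lower and 0.989% higher. Voom called 5 of the 10 (background 4.70%), and 6 had an unadjusted p under 0.05 with limma (background 18.9%). Acta2 and Myh11 were at -0.70 and -2.02 and did not pass (limma adjusted p = 0.127 and 0.0772). Acta2 weighed most in the sum, at 160 and 124 FPKM in mutants, against 298, 198 and 204 FPKM in controls. Cnn1 was at 6.75 and 8.71 FPKM in mutants, against 23.9, 14.1 and 28.7 FPKM in controls (log2 difference -1.37, limma adjusted p = 0.0516). Of the log2 differences 6 were negative (background 61.1%), those of Acta2, Myh11, Cnn1, Actg2, Cspg4 and Abcc9. The other 4, of Mcam, Rgs5, Pdgfrb and Kcnj8, were positive. Rgs5, of pericytes, was at 17.3 and 18.1 FPKM in mutants, against 6.38, 10.9 and 10.2 FPKM in controls (0.91, limma adjusted p = 0.0678). Pdgfrb and Kcnj8 were at 0.08 and 0.13, Cspg4 and Abcc9 at -0.25 and -0.38.

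Epithelial markers summed to 328 and 329 FPKM in mutant libraries, against 825, 415 and 314 FPKM in control libraries, with control replicate 1 the richest. Of 14, Foxa1 was lower with limma (log2 difference -1.43, adjusted p = 0.0419, background 1.37%). The log2 difference was negative for 12 of the 14, where 61.1% of all genes tested were negative, with a median of -0.61. Both mutants lay below every control for 9 (background 24.4%), and 5 had an unadjusted p under 0.05 with limma (background 18.9%). Voom called 1. Epcam was at 38.2 and 40.1 FPKM in mutant libraries, against 124, 66.5 and 51.4 FPKM in control libraries. Cdh1, an adhesion gene of epithelium, stood at 22.1 and 22.5 FPKM in mutant libraries, against 51.6, 24.6 and 23.4 FPKM in control libraries. Markers of the conducting airway summed to 17.6 and 22.2 FPKM in mutant libraries, against 211, 92.8 and 98.8 FPKM in control libraries. Of these 5, 4 were lower by limma (background 1.37%): Sox2 (log2 difference -2.68), Aldh1a7 (-2.39), Cldn10 (-2.24) and Muc1 (-1.66).

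Neuroendocrine and neural markers summed to 60.7 and 50.3 FPKM in mutant libraries, against 102, 89.2 and 115 FPKM in control libraries. By limma 3 of 9 were lower (background 1.37%): Uchl1, Tubb3 and Ret. Chga, a granule gene of neuroendocrine cells, overlapped, at 1.89 and 0.917 FPKM in mutant libraries, against 1.66 to 2.30 FPKM in control libraries, as did Chgb, another granule gene, at 1.04 and 0.583 FPKM in mutant libraries, against 0.761 to 1.35 FPKM in control libraries. Skeletal muscle markers summed to 12.2 and 24.8 FPKM in mutant libraries, against 155, 117 and 132 FPKM in control libraries. By limma 6 of 6 tested were lower (background 1.37%): Myod1, Myog, Msc, Myh3, Acta1 and Tnnt1. Pax7 and Myf5 of muscle progenitors were under 1 FPKM in every library, and Myf5 was at 0 in mutant replicate 2. Cartilage markers summed to 52.3 and 41.8 FPKM in mutant libraries, against 101, 86.5 and 73.5 FPKM in control libraries. By limma 3 of 4 tested were lower (background 1.37%): Col2a1, Col9a1 and Col9a3. Acan, of cartilage matrix, was below the filter. Over all these lists, 0 markers were at 0 in all 5 libraries. For Hey1, Lfng and the other pathway genes, the part that these cell types had in the differences was not tested.

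**Figure D4:**
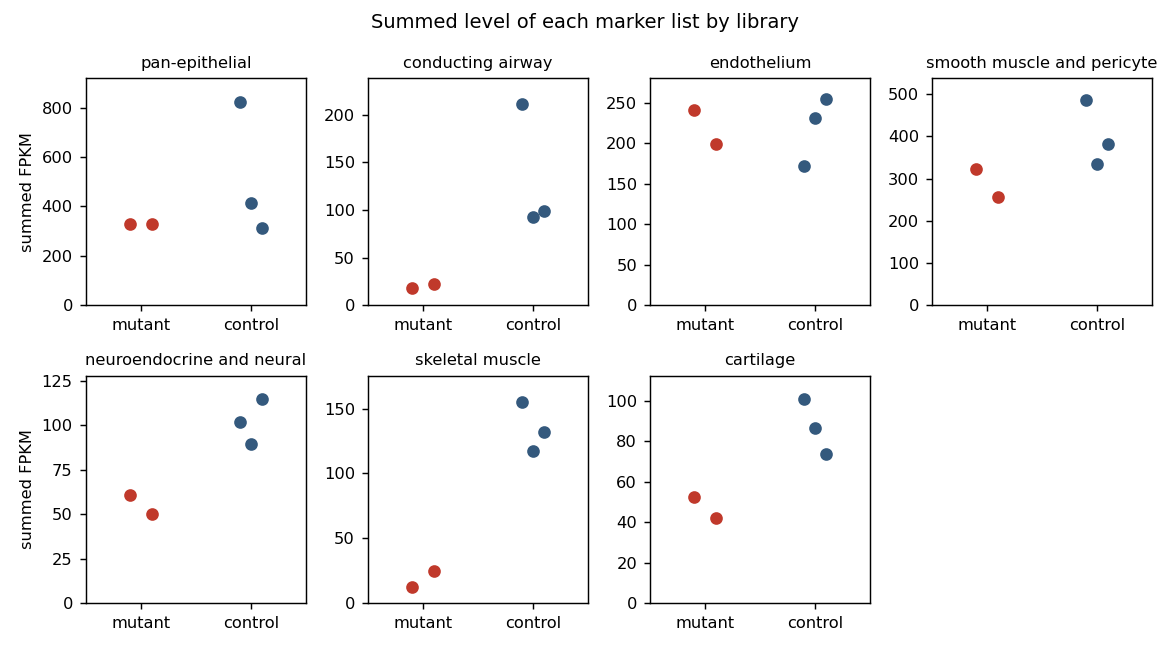
Summed FPKM of each marker list (vertical axis from 0, scaled per list) in the 2 mutant and 3 control libraries, 1 point per library. The mutant sums lay below all controls for the conducting airway, smooth muscle and pericyte, neuroendocrine and neural, skeletal muscle and cartilage lists. Within the smooth muscle and pericyte list, Mcam and Rgs5 were higher in both mutants than in all controls. The sums overlapped the controls for endothelium (241 and 199 against 172 to 255 FPKM) and for the pan-epithelial list.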

How the data were processed

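Levels are the FPKM values of the table that the authors deposited, 19699 gene entries by 5 libraries, a unit taken from that table's name. GRCm38 (mm10) is the build in the submitters' processing notes. How reads were aligned, counted and annotated, and whether strand was used, is not given in the sources used here. The labels' protocols state a SMARTER mRNA-Seq preparation and 1.3 ug of RNA per library.

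Groups and replicate numbers came from the sample titles. The 12838 genes that reached 1 FPKM in 2 libraries or more were tested with limma 3.58.1 (lmFit, eBayes with trend, two-sided) on log2(FPKM + 1), which understates changes of low genes; Benjamini-Hochberg adjustment ran over all of them. Whole reads were recovered from FPKM steps and GENCODE M21 exon lengths and used for depth and for voom; 11 entries gave none. For Notch3, Jag2 and Hey2 annotated lengths gave no whole reads, and the numbers are the smallest whole reads that fit the steps. The steps were tested on simulated data. No 2 libraries held the same values. The members, lists and tests were chosen with earlier results of these data known. Some genes of the pathway and marker lists are not reported here, and counts and sums are over the others. The naming rule took all members, pathway genes past the threshold or with the 2 smallest p in each role, the first 2 markers of each list with those that passed, and 3 nearest profiles for each member that passed. Dll1, Dlk1, Hes5, Hes7, Nkx2-1, Xist, Ddx3y, Rgs5, Cnn1, Pdgfrb, Kcnj8, Cspg4, Abcc9, Calca, Gja4, Erg and Emcn are named outside it. Alternatives were other pseudocounts, filters, scalings, models, covariates and leaving out each library.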

Additional observations from a re-analysis of the deposited data

How the results depend on the processing

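Over the 17 alternatives, Hey1 and Lfng were lower in the mutants in all 17, and past the threshold in 12 for Hey1 and 7 for Lfng. Hes1, Hey2, Heyl and Jag1 were negative in all 17 and past it in 0. TPM moved the median of all genes to -0.59 and gave 67 genes and 0 members past the threshold. The FPKM totals it divides by were 445736 and 907362 in mutant libraries, against 327297, 627990 and 377478 in control libraries. Without a filter there were 69 genes and 0 members, with the male share as a covariate 192 genes, 0 members and 1 further pathway gene, and without limma's trend 1 member. Voom gave 603 genes and 2 further pathway genes. A filter at 5 FPKM and TPM without Gm23935, Rn18s-rs5 and Lars2 each gave 1 further pathway gene, Hes6, against 0 as reported. In each of these Hey1 and Lfng stayed past the threshold. Leaving out each library in turn gave 4 to 284 genes, 0 to 1 members and 0 further pathway genes past the threshold, with 4 genes without mutant replicate 1 and 11 without mutant replicate 2, where the lone mutant is assumed to vary like the controls. The replicate block gave 259 genes, 1 member (Hey1, adjusted p = 0.0435; Lfng 0.0706) and 1 further pathway gene. Whether same-numbered libraries share a litter or a batch is not stated. Their deviations correlated at -0.07 and 0.02. With 2 mutants these values rest on a single contrast between the mutants, so they cannot decide whether the numbers mark pairs. Median ratio scaling gave 151 higher and 140 lower genes, quantile normalization 133 and 115, TPM 10 and 57, and TPM without those 3 entries 99 and 258, against 127 and 176 as reported. Signs turned for Notch1 (-0.28), Notch2 (-0.44), Poglut1 (-0.19) and Maml3 (-0.17) with TPM, but not with TPM without those 3 entries (0.19, 0.06, 0.31 and 0.29). They turned for Notch2 without mutant replicate 1 (-0.0028), for Notch3 (0.09), Jag2 (0.26), Pofut1 (0.02), Notch4 (0.08) and Neurl1b (0.07) without mutant replicate 2, for Jag2 (0.04) without control replicate 1, for Notch4 without control replicates 2 and 3 (0.03 and 0.06), and for Neurl1b without control replicate 3 (0.02). Notch4 also turned with median ratio scaling (0.04), quantile normalization (0.11), the male share (0.20) and the replicate block (0.06), Nrarp with quantile normalization (0.02), and Neurl1b with quantile normalization (0.02), the male share (0.14) and the block (0.02). Over the 5 libraries left out in turn, the ranges were -0.0028 to 0.23 for Notch2, -0.31 to 0.09 for Notch3, -0.55 to 0.26 for Jag2, -0.13 to 0.08 for Notch4, -0.22 to 0.02 for Pofut1 and -0.29 to 0.07 for Neurl1b. The causes were not tested. The lowest read number of a member, at least 70 for Hey2, limits its precision.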
